A study of Mus musculus with 4 samples.

Results

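Bmi1, Hopx, Lrig1, Tert, Sox9 and Mex3a are genes that have been used to mark slowly dividing or reserve stem cells of the mouse intestinal crypt, or cells at the so-called +4 position just above the crypt base. They were taken by name from the array files, where Hopx stands under its present symbol, and every probe carrying one of the names was kept. These are 6 of 28632 gene names on the array and 6 of 15538 genes that could be tested, with 9 probes in all. The material was small intestinal crypt epithelium of 2 mice, split in each mouse into freshly isolated crypts and organoids grown from them for 1 week. Crypts were released with 2 mM EDTA, passed through a 70 µm strainer and plated at 500 crypts per 50 µl of Matrigel. Organoids were grown with Noggin at 100 ng/ml, R-spondin at 500 ng/ml and EGF at 10 to 50 ng/ml, whereas the crypt RNA came from tissue never cultured. No transgene or deletion is named for either group, and strain, age and sex are not given in the sources used here. Crypt and organoid RNA of a mouse were hybridised together on 1 Agilent array with different dyes and again with the dyes exchanged, which gave 4 arrays from 2 mice.

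The crypt base holds fast-dividing columnar stem cells marked by Lgr5, wedged between Paneth cells. Reserve stem cells were proposed as a slower population that can replace them after injury, and several of the markers have since been found across much of the crypt base, including in Lgr5 cells. Bmi1 encodes a subunit of Polycomb repressive complex 1, Hopx a homeodomain protein that does not bind DNA, Lrig1 a membrane protein that restrains ErbB receptors, and Tert the catalytic subunit of telomerase. Sox9 is a Wnt-dependent transcription factor of the crypt base that Paneth cells require, and Mex3a is an RNA-binding protein reported in a slowly dividing subset of Lgr5 cells.

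The sequences that the results turn on are those of the Mex3a probe, whose gene was the only one of the 6 to pass the test, and of the 3 Sox9 probes, which gave different ratios. They were copied from the array files, 5′ to 3′, in lower case throughout because no part is singled out. Of each 60-base probe the first 30 bases are shown, except that the Sox9 probe at transcript base 786 is given whole, since it lies in the part of the coding sequence that encodes the DNA-binding HMG box.
Mex3a, transcript base 5198: gcaaagtaaaggtgggaaataaaacagacc
Sox9, transcript base 786: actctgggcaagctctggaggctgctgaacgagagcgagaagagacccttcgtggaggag
Sox9, transcript base 2082: ttccaggagagagactttaagactttgtct
Sox9, transcript base 3883: ataaaaccttaaagcgttcttataatatgg
The Mex3a probe lies on the plus strand at chr3:88345168-88345227 in mm9, the build named in the array files. The Sox9 probes, also on the plus strand, lie at chr11:112644310-112645162, chr11:112647008-112647067 and chr11:112648809-112648868. The first of these 60-base probes covers 853 genomic bases and so spans an intron. Its GC content was 60%, against 43.3% and 30% for the other two Sox9 probes and 36.7% for Mex3a. Whether the remaining probes lie in coding or untranslated exon sequence was not analysed here.

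All 9 probes were well above background in all 4 crypt and all 4 organoid channels, 72 of 72 channels, with no saturated spot and no spot marked as an outlier. Raw signal was between 2.04 and 128 times the local background. Across the 4 arrays, 51.5% to 61.7% of all probes were well above background in the organoid channel and 53.8% to 67.2% in the crypt channel. All ratios below set organoid over crypt on the log2 scale. Both arrays of a mouse carry the same RNAs and were averaged, so each mean ± SD is over n = 2 mice, a number that limits how precise any value can be. The mouse means were tested against 0 by limma, with Benjamini-Hochberg adjustment over all 15538 genes, and a gene passed at an adjusted p under 0.05. By it 10.9% of all genes passed, 5.43% higher and 5.49% lower in organoids.

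Mex3a rose in organoids, and it was the only one of the 6 genes to pass the test. The other five did not pass, although Sox9, Lrig1, Hopx and Bmi1 were above 0 on every array. Of the 6 genes, 1 passed, next to the 5.43% of all genes that passed as higher, and 4 had an unadjusted p under 0.05 in that direction, next to 14.4% of all genes. Above 0 on all 4 arrays were 5 of the 6, against 25.4% of all genes. The median of the 6 ratios was 0.43, beside 0.03 over all genes tested. In RNA from whole crypts or organoids, a change in the number of cells that express a gene and a change in its RNA per cell cannot be told apart.

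**Figure D1:**
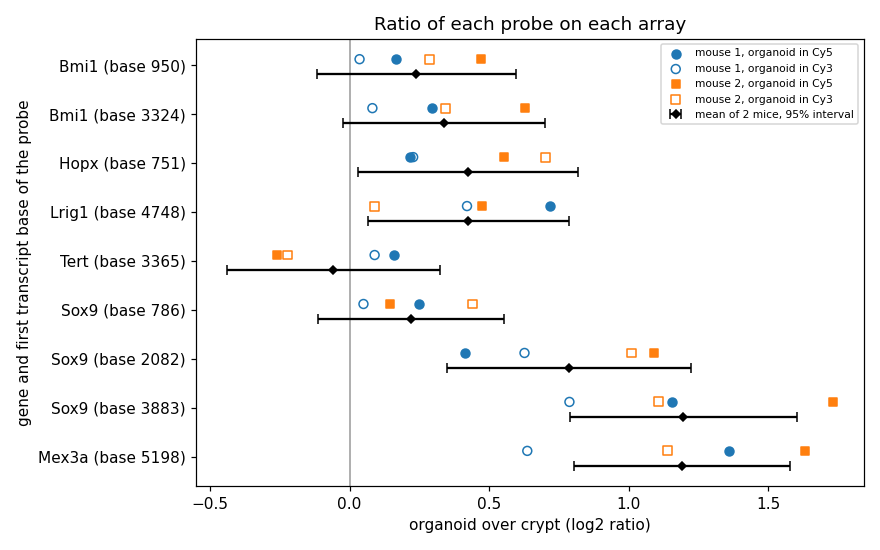
Log2 ratio of organoid over crypt (horizontal axis) for each of the 9 probes (vertical axis), with 1 point per array, coloured by mouse and filled where the organoid RNA was in Cy5, and a diamond for the mean of 2 mice with limma's 95% interval from the fit over all probes. Mex3a and the Sox9 probe at base 3883 lie farthest to the right at 1.19 and 1.20, and Tert is the only gene with arrays on both sides of 0.

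Mex3a, which binds mRNAs through KH domains, had log2 ratios of 1.36 and 0.64 on the arrays of mouse 1 and 1.63 and 1.14 on those of mouse 2, the array with organoid RNA in Cy5 first in each pair. All 4 lay well above 0, and in both mice the Cy5 array was the higher. The mean was 1.19 ± 0.27 (SD, n = 2), or 2.29-fold, with a 95% interval of 0.80 to 1.58 and an adjusted p of 0.0131 by limma. That value is above 98.3% of all genes tested. The normalized log2 level was 8.92 and 8.85 in the crypts of mice 1 and 2 and 9.92 and 10.23 in their organoids. The tissues thus did not overlap, and the crypts differed by 0.07 only. The share of all genes without such overlap, here and for the genes below, was not counted. Mex3a lost the call with median centring in place of loess (1.36, adjusted p = 0.0975), without the filter on dim probes (1.19, adjusted p = 0.0575) and on the 2 arrays with organoid RNA in Cy3 alone (0.89, adjusted p = 0.0587). Over all alternatives with a test, its adjusted p ran from 0.00266 to 0.0975 and its sign was positive.

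The other Mex3 genes encode related RNA-binding proteins, and 3 of 3 were tested. None of the 3 passed by limma, and 2 of them had an unadjusted p under 0.05, both higher, as 14.4% of all genes did. Mex3b had the smallest p of the 3, at 0.42 ± 0.07 (n = 2, adjusted p = 0.108), followed by Mex3c at 0.35 ± 0.11 and Mex3d at 0.14 ± 0.04. Mex3b was well above background in 4 organoid but only 3 crypt channels, so it entered the test through the organoid channels. Its ratio was 0.33 with no background subtraction and 1.03 with the scanner ratios, so its size is not settled. The Mex3a ratio lay above that of each relative in both mice, and the difference between the genes was not tested.

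Sox9 was represented by 3 probes on 1 transcript, and their ratios increased with the distance of the probe from the start of the transcript. At base 786, in the HMG box, the 4 arrays gave 0.25 and 0.05 in mouse 1 and 0.15 and 0.44 in mouse 2. The mean was 0.22 ± 0.10 (n = 2), and the adjusted p in limma's fit over all probes was 0.366. At base 2082 they gave 0.41 and 0.63 in mouse 1 and 1.09 and 1.01 in mouse 2, so that mouse 2 stood above mouse 1 on both arrays. This brightest probe supplies the gene's value of 0.79 ± 0.38 (n = 2), or 1.72-fold, with a 95% interval of 0.34 to 1.23 and an adjusted p of 0.0516 by limma, just short of the threshold. At base 3883 the arrays gave 1.16 and 0.79 in mouse 1 and 1.73 and 1.11 in mouse 2. The mean was 1.20 ± 0.32 (n = 2), or 2.29-fold, and this probe passed over all probes by limma (adjusted p = 0.0156). With Mex3a it was 1 of 2 among the 9 probes to do so, next to 4.48% of all probes that passed as higher.

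The probe at base 3883 is printed at 10 spots on each array, which shows how far the measurement repeats within an array. Its spots had a mean of 1.16 on the Cy5 array of mouse 1 and ran from 1.10 to 1.26. On the Cy3 array of that mouse they ran from 0.71 to 0.87, and in mouse 2 from 1.65 to 1.80 in Cy5 and from 0.99 to 1.21 in Cy3. The SD between spots was 0.05 to 0.06 on each array, smaller than the gap between dye orientations and the gap between mice. In level, it was 10.48 and 11.05 in the crypts of mice 1 and 2 and 11.45 and 12.47 in the organoids, and both organoids lay above both crypts. The probe at base 2082 had crypt levels of 11.39 and 11.33 and organoid levels of 11.91 and 12.38, again without overlap.

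**Figure D2:**
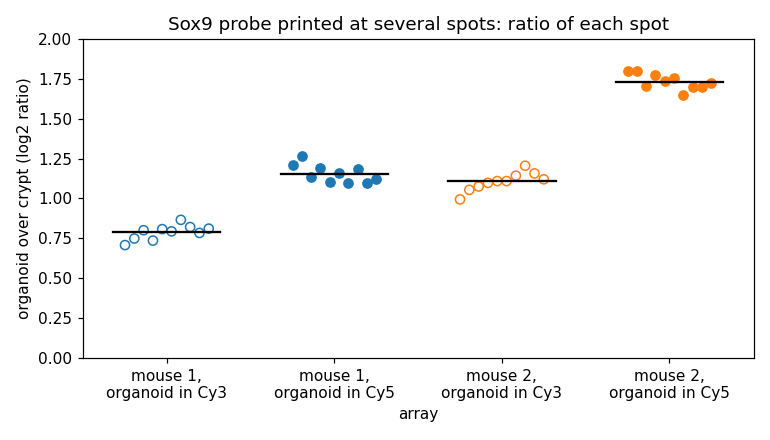
Log2 ratio of organoid over crypt (vertical axis) at each of the 10 spots of the Sox9 probe at base 3883 on each of the 4 arrays (horizontal axis), filled where the organoid RNA was in Cy5, with a line at the mean of the array. The spots of an array lie close together, around 0.79 and 1.16 in mouse 1 and 1.11 and 1.73 in mouse 2.

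Between Sox9 probes, the ratio at base 3883 was higher than that at base 786 by 0.98 ± 0.22 and higher than that at base 2082 by 0.41 ± 0.06 (n = 2 mice), and the ratio at base 2082 was higher than that at base 786 by 0.56 ± 0.27. Each of these 3 differences was above 0 on 4 of 4 arrays. With 2 mice an exact permutation test of such a difference cannot give a p below 0.5, so none is reported as tested. Among the 1227 genes with more than 2 probes tested, the median span between a gene's highest and lowest ratio was 0.26, and 44 of them (3.59%) had a span at least as large as that of Sox9. Over 1944 transcripts with tested probes at least 1000 bases apart, the later probe minus the earlier one had a median of 0.05 and was above 0 in 57.6%.

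The probe at base 786 had a raw signal of 2.04 to 3.10 times the local background, against 26.6 to 44.4 times at base 2082. Its ratio was 0.21 with no background subtraction and 0.33 with a normexp offset of 1. From the scanner software's own ratios it was 0.65 in each mouse (mean 0.65), with an adjusted p of 0.0953, and from the deposited matrix 0.63, both of which differ from the reported processing in normalization too. On those scales base 3883 remained the highest of the 3 on 4 of 4 arrays with the scanner ratios and on 3 of 4 with the matrix. The probe at base 786 was then the lowest on 2 of 4 arrays with either. The part of signal strength in the differences between these probes was not tested.

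At gene level Sox9 passed under 5 of the alternatives, which gave ratios of 0.73 to 0.80, and missed under the other 8 that gave a test, with adjusted p-values from 0.0101 to 0.196 over all 13. Among the 5 was a fit that counts the arrays of a mouse, which carry the same RNAs, as separate replicates. The lowest adjusted p came from a fit with the mouse as a random block, which counts them as nearly separate (correlation 0.173). The Sox9 ratio was 0.52 in mouse 1 and 1.05 in mouse 2. Paneth cells express Sox9 too. Of 12 Paneth names in the list 7 were on the array and tested, and of these 6 fell, with a median of -1.79. Among all genes tested, 5.49% passed as lower. The lysozyme gene Lyz1 had -2.92 ± 0.11 (n = 2), Ang4 -2.54 ± 1.05 and Itln1 -1.90 ± 0.50. Ang4 (adjusted p = 0.0960) and Itln1 (adjusted p = 0.0586) lost the call without the filter on dim probes, and Itln1 also with median centring (adjusted p = 0.0835). The summed intensity of the Paneth list was 608500 to 777700 in crypts and 160600 to 175100 in organoids, opposite in direction to Sox9, and its part in the Sox9 ratio was not tested. Of 11 Sox genes tested 1 passed: Sox4, a factor of progenitor cells, rose by 0.96 ± 0.19 (n = 2, adjusted p = 0.0184 by limma), a call lost with median centring (adjusted p = 0.196) and no filter on dim probes (adjusted p = 0.0581). The median of the Sox list was 0.03, and 5.43% of all genes tested passed as higher.

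**Figure D3:**
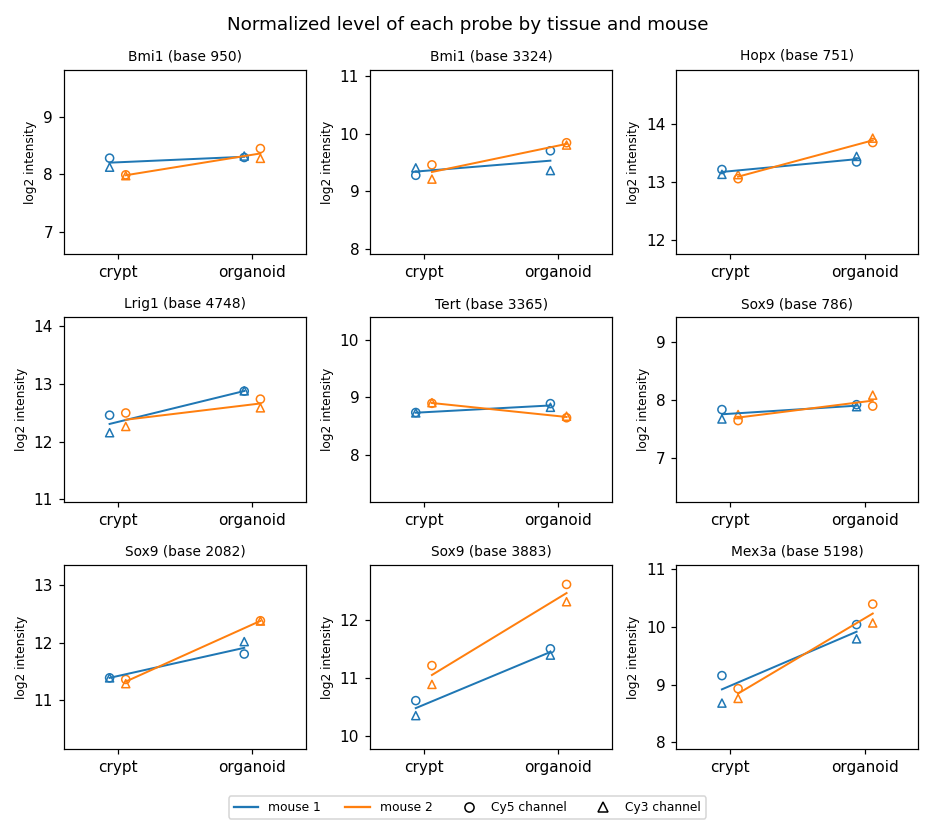
Normalized log2 intensity (vertical axis) of each probe in crypt and organoid (horizontal axis), with circles for the Cy5 and triangles for the Cy3 channel and a line joining the means of each mouse. Every panel spans the same range of log2 units. Both organoids lie above both crypts for all probes but that of Tert, and levels are not comparable between panels. The share of all probes on the array with that order was not counted.

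Lrig1, a leucine-rich repeat protein that promotes the degradation of ErbB receptors, was measured by 1 probe at chr6:94554681-94554740 on the minus strand. Its log2 ratios were 0.72 and 0.42 on the arrays of mouse 1 and 0.47 and 0.09 on those of mouse 2. All 4 were above 0, and mouse 1 had the higher mean, unlike Mex3a, Sox9, Hopx and Bmi1, for which mouse 2 did. The mean was 0.43 ± 0.20 (n = 2), or 1.34-fold, with a 95% interval of 0.06 to 0.79. By limma the adjusted p was 0.132, so Lrig1 did not pass. The log2 level was 12.31 and 12.38 in the crypts and 12.88 and 12.66 in the organoids, without overlap. With the 4 arrays as separate values and a dye effect Lrig1 passed (adjusted p = 0.0401 by limma). That fit counts the arrays of a mouse, which carry the same RNAs, as separate replicates. Over the alternatives the adjusted p of Lrig1 ran from 0.0401 to 0.531.

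Of 13 genes of the Lrig family and of ErbB signalling, 3 passed as higher and none as lower by limma, and 4 were higher and 0 lower at an unadjusted p under 0.05. Among the 4 was Socs5 (0.42 ± 0.02, n = 2), which did not pass. It was well above background in only 3 crypt channels and entered the test through the organoid channels. Those that passed were the ErbB ligands amphiregulin, Areg (2.11 ± 0.23, n = 2), and betacellulin, Btc (1.38 ± 0.24, adjusted p = 0.00831), and the feedback inhibitor Errfi1 (0.99 ± 0.06, adjusted p = 0.0133). Btc lost its call with median centring (adjusted p = 0.0652) and on the organoid-in-Cy3 arrays alone (1.02, adjusted p = 0.0687), and was 2.45 with the scanner ratios and 2.42 with the matrix. Errfi1 lost its call with median centring (adjusted p = 0.154). The list had a median of 0.21. Among all genes tested, 5.43% passed as higher and 14.4% were higher at an unadjusted p under 0.05 by limma. Of the relatives of Lrig1, Lrig2 had 0.31 ± 0.30 and Lrig3 0.07 ± 0.11, and neither passed.

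Hopx, a small protein that acts through other transcription factors, was read at a raw signal of up to 128 times the local background. Its probe, at chr5:77516460-77516519 on the minus strand, gave 0.22 and 0.23 on the arrays of mouse 1 and 0.56 and 0.70 on those of mouse 2. The arrays of a mouse lay closer together than the mice did. The mean was 0.43 ± 0.29 (n = 2), or 1.34-fold, with a 95% interval of 0.03 to 0.82 and an adjusted p of 0.158 by limma. Levels were 13.18 and 13.10 in the crypts and 13.40 and 13.72 in the organoids, so the organoids lay above the crypts by less in mouse 1 than in mouse 2. Under none of the alternatives with a test did Hopx pass, and its adjusted p ran from 0.0513 to 0.413.

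Bmi1, the Polycomb subunit whose reporter was used to trace +4 cells, had 2 probes with like ratios. The brighter one, at chr2:18607987-18608046 on the plus strand, gave 0.30 and 0.08 in mouse 1 and 0.63 and 0.34 in mouse 2. The other, at chr2:18605306-18605365, gave 0.17 and 0.04 in mouse 1 and 0.47 and 0.29 in mouse 2. Every array was above 0 at both probes, and the Cy5 array was the higher in each pair. The brighter probe's mean was 0.34 ± 0.21 (n = 2), or 1.26-fold, with a 95% interval of -0.03 to 0.70, and the adjusted p was 0.21 by limma. The other probe had 0.24 ± 0.20 (n = 2). They differed by 0.10 ± 0.02, a span that 66.3% of the 4849 genes with more than 1 tested probe reached or exceeded. At the brighter probe the log2 level was 9.34 and 9.33 in the crypts and 9.53 and 9.82 in the organoids. Under no alternative did Bmi1 pass (adjusted p from 0.0737 to 0.669).

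Polycomb repressive complex 1 silences genes by marking histone H2A. The Polycomb list also holds Ezh2, Eed and Suz12, which belong to Polycomb repressive complex 2. Of its 22 tested genes 3 passed as higher and none as lower by limma, and 8 were higher and 0 lower at an unadjusted p under 0.05. Those that passed were Cbx6 (1.29 ± 0.09, n = 2, adjusted p = 0.00712) and Cbx7 (0.78 ± 0.03, adjusted p = 0.0240), which encode chromobox subunits, and Rnf2 (0.72 ± 0.14, adjusted p = 0.0337), the ubiquitin ligase with which Bmi1 pairs. The median of the list was 0.18. Of all genes tested, 5.43% passed as higher and 14.4% were higher at an unadjusted p under 0.05 by limma. Rnf2 lost its call with the scanner ratios (adjusted p = 0.0691), the deposited matrix, median centring, no filter on dim probes, the mean over its probes and the organoid-in-Cy3 arrays alone. Cbx7 lost it with median centring (adjusted p = 0.256) and on the organoid-in-Cy3 arrays alone (0.52, adjusted p = 0.0931), and Cbx6 with median centring (adjusted p = 0.0766).

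Tert was the one gene whose mice went opposite ways. Its probe, at chr13:73786429-73786488 on the plus strand, gave 0.16 and 0.09 on the arrays of mouse 1 and -0.26 and -0.22 on those of mouse 2. The mean was -0.06 ± 0.26 (n = 2), with a 95% interval of -0.44 to 0.33 and an adjusted p of 0.859 by limma. The interval holds differences of either sign, and it does not show that the level stayed the same. Crypt levels were 8.73 and 8.90 and organoid levels 8.86 and 8.66, so the tissues overlapped. Mice of opposite sign were found for 31.2% of all genes tested. A list of 17 tested genes held those of telomerase, of shelterin, the complex that caps telomeres, and other telomere factors such as Stn1 and Rtel1. Of these genes 1 passed as higher and 1 as lower by limma. Tep1, which encodes a telomerase-associated protein, fell by 0.75 ± 0.01 (n = 2, adjusted p = 0.0263). It lost the call with the scanner ratios (adjusted p = 0.0725), the matrix, no filter on dim probes and median centring (-0.44, adjusted p = 0.749). Naf1, which encodes an assembly factor of the telomerase particle, rose by 0.61 ± 0.11 (n = 2) with an adjusted p just under the threshold that rounds to 0.05. It lost the call under 7 alternatives, where its adjusted p was 0.0528 to 0.416, and its ratio was 0.35 on the organoid-in-Cy3 arrays alone. At an unadjusted p under 0.05, 4 genes of the list were higher and 1 lower, and the list's median was 0.00. Over all genes tested, 14.4% were higher at that p, and 5.43% passed as higher and 5.49% as lower.

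**Figure D4:**
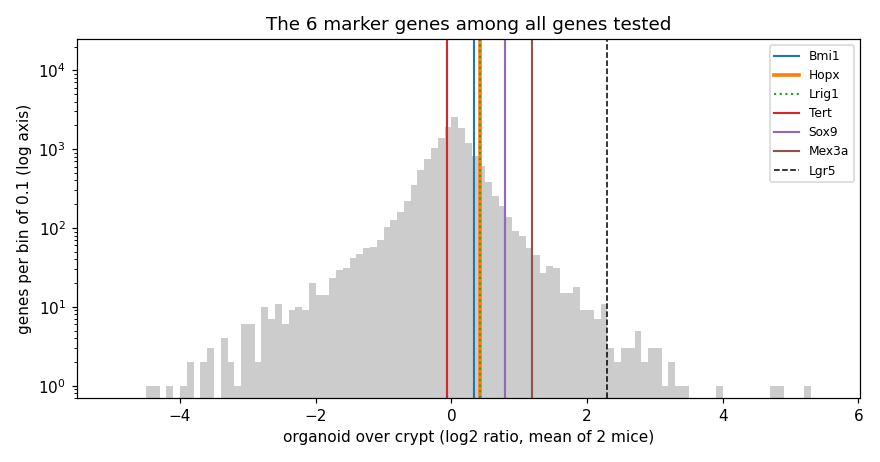
Number of genes (vertical axis, log scale) by log2 ratio of organoid over crypt (horizontal axis, mean of 2 mice, bins of 0.1) for all 15538 genes tested, with a line for each of the 6 genes and a dashed line for Lgr5. Hopx and Lrig1 coincide at 0.43, Mex3a stands at 1.19 and Lgr5 at 2.29.

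Other markers proposed for slowly dividing or reserve cells did not move together. Of 15 tested, 1 rose and 1 fell by limma, with a median of -0.17 and 7 of 15 above 0. The shares over all genes tested were 5.43% higher and 5.49% lower. Clu, which encodes clusterin and marks cells that appear after injury, rose by 2.25 ± 0.17 (n = 2, adjusted p = 0.00257), and the keratin gene Krt19 fell by 0.72 ± 0.06 (adjusted p = 0.0306). Krt19 lost its call with the scanner ratios, the matrix, median centring, no filter on dim probes and the organoid-in-Cy3 arrays alone, where its adjusted p was 0.0535 to 0.907.

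Of 16 markers of the columnar stem cells at the crypt base, 4 rose and 1 fell, with a median of 0.45. The shares of all genes that passed were 5.43% higher and 5.49% lower. Lgr5, the R-spondin receptor, had log2 ratios of 2.33 in mouse 1 and 2.25 in mouse 2, beside 1.00 and 1.39 for Mex3a and 0.52 and 1.05 for Sox9. In both mice Lgr5 lay above each of the 6 genes, and these differences were not tested. Smoc2 (0.96 ± 0.17, n = 2) and the receptor gene Ephb3 (0.92 ± 0.01) also rose, and both lost the call with median centring (adjusted p = 0.170 and 0.167), Smoc2 also with no filter on dim probes (adjusted p = 0.0536). Olfm4 (-0.09 ± 0.21) and Ascl2 (-0.22 ± 0.12) did not pass, and the urea transporter gene Slc14a1 fell by 2.55 ± 0.27. Of 16 proliferation genes none passed by limma, while 1 was higher and 2 were lower at an unadjusted p under 0.05. Ccnd1, which encodes cyclin D1, had the smallest p at -0.46 ± 0.02 (n = 2, adjusted p = 0.0894), and Mki67 had -0.19 ± 0.15 (adjusted p = 0.440).

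Markers of other cells of the preparation moved beside the 6 genes, and their part in the ratios was not tested. Over all genes, 5.49% passed as lower. Of 14 enterocyte genes tested 13 fell, led by Lct (-4.47 ± 0.06, n = 2), Krt20 (-2.75 ± 0.03) and Fabp2 (-2.55 ± 0.35), and their summed intensity was 739300 to 828000 in crypts and 235500 to 250900 in organoids. Of 10 goblet genes 6 fell, led by Zg16 (-3.50 ± 0.07), Clca1 (-3.07 ± 0.31) and Ccl6 (-2.25 ± 0.66), with sums of 381300 to 410000 and 97610 to 105800. Ccl6 lost the call without the filter on dim probes (adjusted p = 0.0646). Blood cell genes fell in 6 of 16, among them Ccl5 (-3.51 ± 0.14) and Lyz2 (-2.32 ± 0.18, or -1.45 as the mean over its probes). Gzma had -2.80 ± 0.15, but it was well above background in 1 of 4 organoid channels and the scanner ratios gave -5.75, so its size is not settled. Genes dim in organoids entered this list through the crypt channels. Among those well above background in all 8 channels 2 fell, and the median was -0.18 in place of -0.53. The sums of the whole list were 73430 to 74010 in crypts and 15130 to 17620 in organoids, and Cd3g, Cd3d and Itgam were well above background in 0 of 4 organoid channels. Of the 6 genes, Bmi1 is also known from blood cells.

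Tuft and enteroendocrine cells have been reported to carry some of the reserve markers. No tuft gene of 12 passed by limma, and 0 had an unadjusted p under 0.05. Sh2d6 had the smallest p, at -0.32 ± 0.04 (n = 2), and the list's summed intensity overlapped between crypts (6090 to 6817) and organoids (5595 to 7827). Of 17 enteroendocrine genes 1 passed, the secretin gene Sct, which fell by 1.60 ± 0.00 (n = 2) and lost the call with median centring (adjusted p = 0.139). At an unadjusted p under 0.05 by limma, 2 of the 17 were higher and 2 lower. Over all genes tested, 5.43% passed as higher and 5.49% as lower, and 14.4% were higher at that unadjusted p. The sums of the enteroendocrine list were 101300 to 104400 in crypts and 100400 to 137900 in organoids. Of 4 stromal and vessel genes tested 1 passed, Acta2 at -0.66 ± 0.01, which lost the call under 6 alternatives and was -0.31 as the mean over its probes (adjusted p = 0.197). The 4 genes tested had sums of 8648 to 10820 in crypts and 6251 to 7234 in organoids.

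Genes whose ratios over the 4 arrays were most like those of a marker were found by the root mean square difference in log2 ratio, a description over 4 arrays of 2 mice with no test. Nearest to Mex3a were Camkk1, Crim1 and Krt18, with differences of 0.10 to 0.11, and only 15 genes lay within 0.2 of it. For Sox9 the nearest were Zfp13, Ugt2b35 and Mfge8 (0.04 to 0.09), with 80 genes within 0.2. Genes within that distance numbered 339 for Lrig1, 467 for Hopx, 1237 for Bmi1 and 1804 for Tert, so a likeness to these genes is shared by many genes. Their nearest were Fdxacb1, Eef1e1 and Hic2 for Lrig1, Snx6, Eif2a and Map2k6 for Hopx, Phax and Esrrg among those for Bmi1, and Zdhhc16, Lzts3 and Ankrd13c for Tert. None of the 6 genes was among another's 3 nearest.

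**Figure D5:**
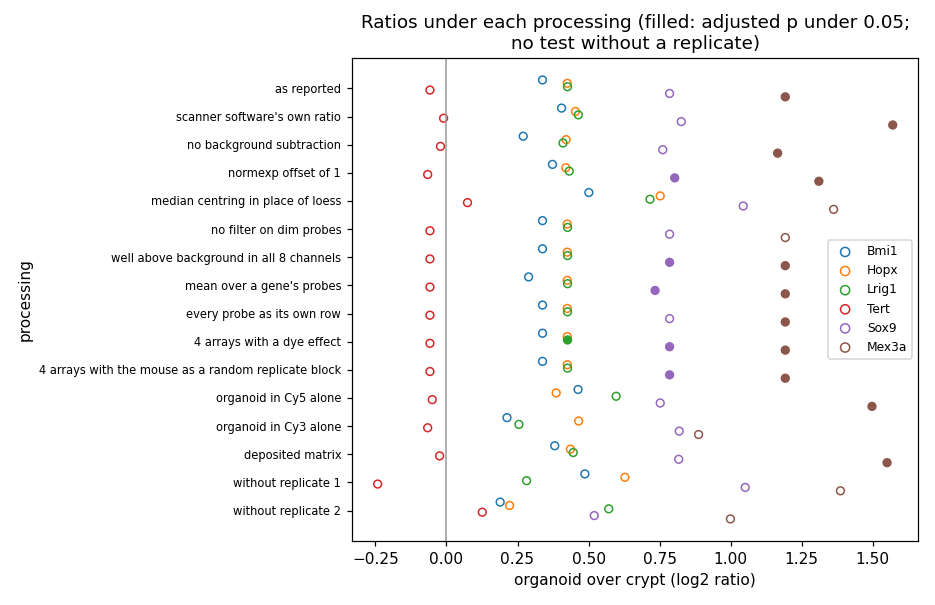
Log2 ratio of organoid over crypt (horizontal axis) of each of the 6 genes under the reported processing and 15 alternatives (vertical axis), filled where the adjusted p was under 0.05. Mex3a lies rightmost in all 16, between 0.89 and 1.57, and Tert lies near 0 with points on both sides.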

How the data were processed

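Per the file headers, the deposited intensity values give each spot's mean signal and its median local background in both dyes, and the deposited log10 ratios (Cy5 over Cy3) were computed by the scanner software. The authors' matrix holds log2 ratios of Cy5 over Cy3 (r with the scanner ratios from 0.978 to 0.991), and its centring is not stated in those sources. Feature Extraction is version 10.2.1.3 per the file headers and 9.5.3 per the submitters' processing notes.

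Using limma 3.58.1 (R 4.3.3), normexp with an offset of 50 corrected the background, arrays were normalized by loess (control spots at weight 0), outlier-marked spots were left out and spots averaged per probe. Levels are after Aquantile. A probe was tested where no array had it marked and 1 tissue at least had it well above background in each of its 4 channels (21923 of 41174). Names came from RefSeq (GRCm38.p6) accessions where matched (24844 probes), otherwise from the files, and a gene is its brightest probe. Means of the 2 mice were set against 0 by lmFit and eBayes (1 residual and 4.16 prior degrees of freedom), two-sided, and the code was tested on simulated data. A mouse's arrays correlated at r = 0.837 and 0.85 across genes. Genes named were the 6 markers, their 3 nearest (1 of which is not reported here), a few fixed stem cell genes, and per list up to 3 highest and 3 lowest passing genes (every one for families and partners) or, if none passed, that with the smallest p. The 6 genes and the lists were chosen with earlier results of these data known.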

Additional observations from a re-analysis of the deposited data

How the results depend on the processing

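Ratios of the 6 genes were recomputed under 15 alternatives, 1 of them (a normexp offset of 1) chosen after seeing the data. Sox9 passed with that offset (0.80, adjusted p = 0.0458), with probes well above background in all 8 channels (0.79, adjusted p = 0.0478), with the mean over its probes (0.73, adjusted p = 0.0431) and with 4 arrays and a dye effect (0.79, adjusted p = 0.0207), where Lrig1 passed too (0.43, adjusted p = 0.0401). The dye-effect fit counts the arrays of a mouse, which carry the same RNAs, as separate replicates. With the mouse as a random replicate block, the 4 arrays entered with a correlation of 0.173 within a mouse and no dye effect. At so low a correlation the arrays of a mouse count as nearly separate replicates in this fit too. Sox9 then had 0.79 (adjusted p = 0.0101), no other of the 6 changed its call, and 1590 genes were higher and 1490 lower. Mex3a did not pass with median centring (1.36, adjusted p = 0.0975), no filter on dim probes (1.19) or organoid in Cy3 alone (0.89). Tert changed sign with median centring (0.074), which moved the median of all genes to 0.17 (Tert -0.09 relative to it), and in mouse 1 alone (0.13). Against 844 higher and 853 lower, median centring gave 130 and 94 genes, no filter 293 and 384, the dye effect 1952 and 1757, and organoid in Cy3 alone 432 and 476. The number of the 6 that passed was 0 to 3. It was 3 with the dye effect, where 1952 of 15538 genes were higher. It was 0 with median centring, no filter and organoid in Cy3 alone, where fewer of all genes passed than in the reported processing.

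Leaving out a mouse leaves 1 value and no test. The ratios then ran from 0.19 to 0.49 for Bmi1, 0.22 to 0.63 for Hopx, 0.28 to 0.57 for Lrig1, -0.24 to 0.13 for Tert, 0.52 to 1.05 for Sox9 and 1.00 to 1.39 for Mex3a. Among 35 other named genes, calls were lost 44 times (14 with median centring, 10 with no filter, 6 with organoid in Cy3 alone, 5 each with the scanner ratios and the matrix, 2 with the mean over probes, 1 each with the offset of 1 and every probe as its own value) and gained 4 times, and Olfm4 (0.25) and Mki67 (0.15) changed sign with median centring, Olfm4 also in mouse 2 alone (0.064). The causes of these changes were not tested. A slide or scan block was not run, since all 4 arrays share 1 slide and 1 scan. The Sox9 probe at base 786 had a raw signal of only 2.04 to 3.10 times its local background.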

Other observations

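The dye orientation moved the probes unequally. For Mex3a the array with organoid RNA in Cy5 exceeded its dye-swapped partner in both mice, and lay above the mean of the pair by 0.36 and 0.25 on the log2 scale. The same distance was 0.18 and 0.31 at the Sox9 probe at base 3883, 0.15 and 0.19 for Lrig1, and -0.01 and -0.07 for Hopx. It cancels in the mean of a mouse, and all 4 arrays of Mex3a stayed above 0.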
